A study of Homo sapiens with 24 samples.

Results

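ABBV-075 was added to interferon gamma (IFNg) in cultures of HepG2, a line from a human hepatocellular carcinoma, and 3 libraries of cells given IFNg with ABBV-075 at 50 nM were compared with 3 libraries of cells given IFNg alone. These 6 of the 24 libraries of the series were chosen by their labelled treatment and by no measured value. For reference, 3 libraries each were taken from cells given DMSO, the solvent, from cells given ABBV-075 at 50 nM without IFNg, and from cells given IFNg with ABBV-744 at 50 nM. The amount of IFNg and the length of the treatments with IFNg are not given in the sources used here, whereas the study's methods give 12 h for ABBV-075 without IFNg. The replicates are experimental triplicates of 1 cell line. The study's methods call the DMSO and ABBV-075 samples independent, and the sources used here do not say whether the libraries with IFNg came from separate cultures, so the p-values measure only the spread between these libraries, which may be technical.

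BET proteins, of which BRD2 is one, hold a pair of bromodomains that bind acetylated lysines of histones, and they bring the elongation factor P-TEFb to promoters and enhancers. ABBV-075 binds both bromodomains of these proteins, and ABBV-744 prefers the second one. IFNg acts through its receptor, the kinases JAK1 and JAK2 and factors of the STAT family, which bind the gamma-activated site (GAS) of promoters. These raise further factors such as IRF1, and hepatocytes answer with antigen presentation, complement and antiviral genes.

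The 6 libraries held between 23560840 and 28925049 reads, of which 3409763 to 3996602 were counted on the strand of a gene. Reads that aligned to several places made up 58.3% to 67.1% of a library and were not counted on genes. All 10 liver lineage markers were expressed, with a sum of 19764 to 21708 CPM (counts scaled to a common library total) in the IFNg libraries and 22626 to 24547 CPM with ABBV-075. The higher sum was not shared by all members. At the adjusted p used below, 4 were higher (40%) and 4 lower (40%) with ABBV-075, beside 28.2% and 28.4% of all genes. Their median log2 fold change was -0.21, and the largest rise was that of APOB (0.85). The leukocyte genes PTPRC, CD3E and CD8A, the endothelial genes VWF, CDH5, KDR and TEK, and the fibroblast genes COL1A1, COL1A2, COL3A1 and DCN were at the floor of 3 counts or fewer in every one of these libraries. The summed level of 8 leukocyte markers was 1626 to 1856 CPM with IFNg and 1104 to 1353 CPM with ABBV-075, that of 6 fibroblast markers 23.4 to 27.4 and 9.62 to 15.9 CPM, and that of 5 endothelial markers 1.12 to 1.63 and 0 to 0.602 CPM. Of the 8 leukocyte markers only CD14, CD68 and LYZ had enough counts for the test, and all 3 fell. Such sums describe RNA of these genes in cultures labelled as 1 cell line and count no cells. The part of these markers in the results was not tested. In such bulk RNA, fewer cells of a kind and less RNA per cell cannot be told apart.

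ABBV-075 changed a large part of the transcriptome of IFNg-treated cells. With edgeR's quasi-likelihood test, 6331 of 11187 genes tested (56.6%) passed a Benjamini-Hochberg adjusted p of 0.05, 3155 higher (28.2%) and 3176 lower (28.4%) with ABBV-075. Below, "rose" and "fell" refer to this threshold, and counts in a gene list are to be read beside these shares of all genes. When a log2 fold change of 1.5 or more in either direction was also required, 690 genes (6.17%) remained, 270 upregulated (2.41%) and 420 downregulated (3.75%). The libraries of both groups did not overlap in 689 of these 690 genes, beside 60.7% of all genes tested. Among 334 long non-coding RNAs tested, 6 were upregulated and 15 were downregulated. The direction of a change went with the base composition of the transcript. The median GC content was 38.6% for the upregulated, 52.5% for the downregulated and 47.5% for all genes tested. After a correction for GC content the split was 132 upregulated to 374 downregulated genes (26.1% upregulated, against 39.1% without it), and 101 of the 270 and 332 of the 420 genes kept their call. The part that base composition has in these changes was not tested.

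**Figure D1:**
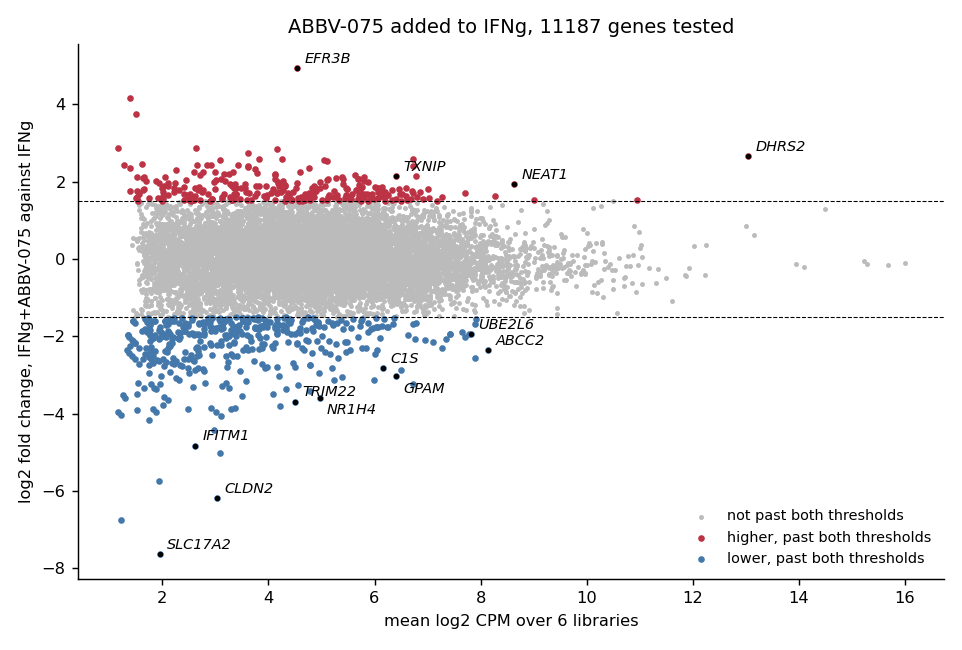
Log2 fold change of IFNg+ABBV-075 against IFNg (vertical axis) against the mean log2 CPM over the 6 libraries (horizontal axis) for 11187 genes, with the 270 upregulated genes in red, the 420 downregulated genes in blue and dashed lines at an absolute log2 fold change of 1.5. DHRS2 stands out among the abundant genes, and the fitted values of SLC17A2, which had no count with ABBV-075, depend on the prior count of the fit.

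**Figure D2:**
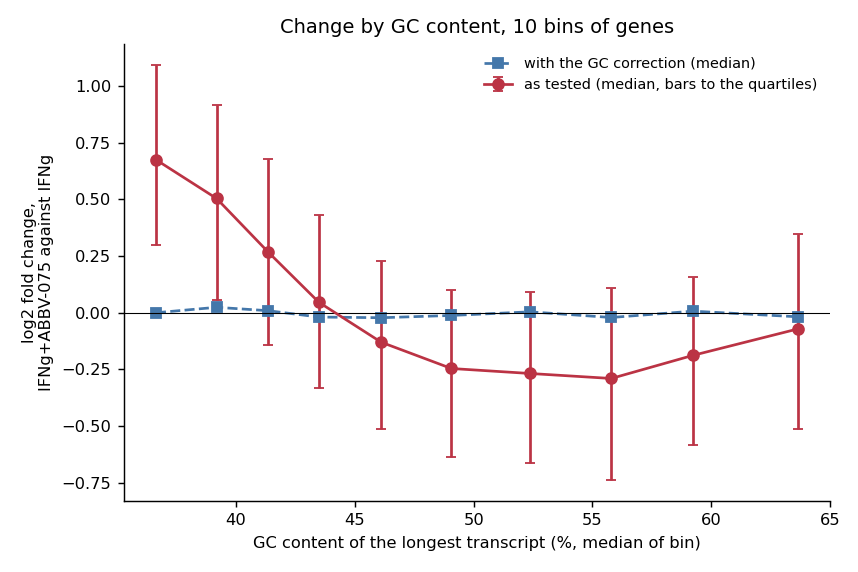
Median log2 fold change of IFNg+ABBV-075 against IFNg in 10 bins of genes by the GC content of the longest transcript, with bars to the quartiles, before and after the GC correction. The median runs from 0.68 in the bin lowest in GC to -0.29 in the eighth bin before the correction, and the corrected medians lie near 0.

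DHRS2, a short-chain dehydrogenase of mitochondria and nucleus (chr14:23630115-23645639, plus strand, GRCh38), was the most abundant of the 270 upregulated genes. Its level was 2307, 2363 and 2311 CPM in the IFNg libraries and 14036, 15241 and 15031 CPM with ABBV-075. Every ABBV-075 library was above every IFNg library, and the level was 6.32-fold higher (log2 fold change 2.66 ± 0.07 (SE), adjusted p = 5.54e-27, edgeR). Without IFNg the same inhibitor took DHRS2 from 2148 ± 76.9 CPM to 15051 ± 1527 CPM (SD, n = 3), and the change with IFNg differed from that by -0.15 on the log2 scale (interaction adjusted p = 0.835, edgeR).

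EFR3B, which anchors the phosphatidylinositol 4-kinase PI4KA at the plasma membrane (chr2:25042076-25159135, plus strand), had the largest log2 fold change among the upregulated genes. It was at 1.09, 0.884 and 2.23 CPM with IFNg alone and at 41.7, 44.2 and 46.6 CPM with ABBV-075. The groups were far apart, 30.5-fold (log2 4.93 ± 0.26, adjusted p = 1.91e-18). SESN3, a sestrin that restrains mTORC1, rose from 1.36, 1.47 and 1.12 CPM to 12.4, 9.5 and 7.52 CPM. CCDC144NL, annotated as a lncRNA, rose from 4.63, 4.12 and 3.91 CPM to 37.7, 28.5 and 25.3 CPM, and KIF3A, a kinesin subunit of ciliary transport, from 6.26, 6.78 and 2.79 CPM to 36.5, 30.4 and 28.6 CPM. The naming of these 3 genes required groups that do not overlap. DPYSL3, a regulator of the neuronal cytoskeleton, and LEPR, the leptin receptor, rested on 2 and 3 counts over all IFNg libraries. Their count ratios were 21.2 (95% exact binomial interval 5.54 to 181) and 15.1 (4.86 to 75.9), which cover counting error only.

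The largest decreases were those of genes at low levels. SLC17A2, a sodium-phosphate transporter (chr6:25912754-25930691, minus strand), was at 7.35, 6.78 and 6.42 CPM with IFNg and had no count in any library with ABBV-075. Against a floor of 3 counts per library it was at least 8.35-fold lower. C2orf54 was at 3, 3.83 and 4.19 CPM, likewise without a count with ABBV-075, and at least 4.48-fold lower. CLDN2, a pore-forming claudin of tight junctions, held 166 counts over the IFNg libraries and 2 with ABBV-075, a ratio of 86 (95% exact binomial interval 23.4 to 716). AKR1D1, the 5-beta-reductase of bile acid synthesis, fell from 16.3, 18.6 and 12.6 CPM to 0.248, 1.09 and 0 CPM. INHBC, an inhibin beta subunit made in liver, fell from 14.4, 14.7 and 13.7 CPM to 0.992, 0.543 and 0.301 CPM. CTSS, the lysosomal protease cathepsin S of antigen processing, fell from 16.9, 13.8 and 15.9 CPM to 1.98, 0.543 and 0 CPM. These genes were named among those whose groups did not overlap.

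Genes known to answer to BET inhibitors moved as follows. HEXIM1, the inhibitor of P-TEFb, was at 47.7, 49.2 and 44.7 CPM with IFNg and at 136, 128 and 140 CPM with ABBV-075 (log2 1.51 ± 0.11, adjusted p = 2.47e-14, edgeR). SERPINI1, the serpin neuroserpin, rose from 2.45, 2.95 and 3.63 CPM to 22.6, 17.9 and 20.8 CPM. MYC fell from 108, 119 and 118 CPM to 60.8, 66.5 and 70.4 CPM (log2 -0.81 ± 0.11, adjusted p = 5.76e-08, edgeR). Of 16 genes tested in a list of BET proteins and P-TEFb regulators, which holds these 3, 8 rose (50%) and 2 fell (12.5%). Over all genes 28.2% rose and 28.4% fell. The median log2 fold change of the list was 0.21 beside 0.00 over all genes. AFF4, the scaffold of the super elongation complex, rose by 0.78 ± 0.10 on the log2 scale, and BRD2 by 0.27 ± 0.10. The rise of BRD2 lost its call without the third replicate of either group, at 0.23 without that of IFNg and 0.25 without that of IFNg+ABBV-075.

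Of the 17 signalling genes of IFNg tested, 6 rose and 4 fell, beside 28.2% and 28.4% of all genes, and the median was 0.14. STAT2, a subunit of the ISGF3 complex, fell from 153, 192 and 187 CPM to 66, 74.4 and 68 CPM, a 2.56-fold decrease. STAT6, which carries the interleukin-4 signal, fell from 91.8, 86.9 and 111 CPM to 31.3, 40.7 and 28.6 CPM. SOCS3, a feedback inhibitor of JAK kinases, fell at a low level, from 4.08, 3.24 and 5.03 CPM to 1.74, 1.63 and 1.2 CPM. PIAS1, a SUMO ligase that restrains STAT signalling, rose from 44.7, 41.5 and 46.3 CPM to 131, 112 and 119 CPM. JAK2 rose from 6.26, 7.95 and 7.82 CPM to 12.9, 12.2 and 15.3 CPM (log2 0.86 ± 0.23, adjusted p = 0.00164), but with the GC correction its value was 0.21 (adjusted p = 0.444, edgeR).

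IRF1, which drives many genes of the interferon response, was at 209, 226 and 252 CPM with IFNg and at 219, 243 and 210 CPM with ABBV-075. Its groups overlapped, and its log2 difference of -0.04 ± 0.09 (adjusted p = 0.74, edgeR) became a rise of 0.24 with the GC correction (adjusted p = 0.00346, edgeR). IRF9, the DNA-binding subunit of ISGF3, fell from 167, 175 and 185 CPM to 95.8, 107 and 97.8 CPM. BATF2, an IFNg-induced leucine zipper factor, fell from 101, 133 and 135 CPM to 36.5, 52.9 and 38.5 CPM. Of 8 interferon regulatory factors and related genes tested, 2 rose and 4 fell (25% and 50%, beside 28.2% and 28.4% of all genes), with a median of -0.30. IRF2BP2, a corepressor that binds IRF2, was among those that rose, by 0.74 ± 0.10 on the log2 scale.

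**Figure D3:**
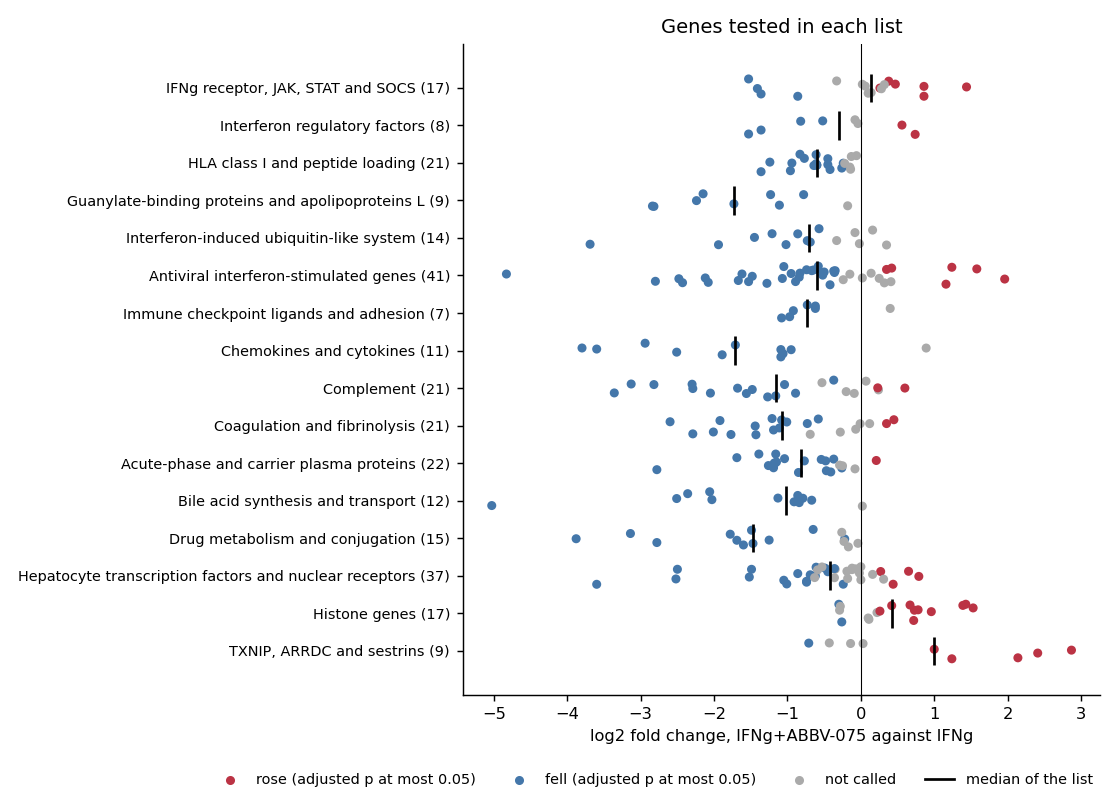
Log2 fold change of IFNg+ABBV-075 against IFNg for each gene tested in 16 gene lists (the number in brackets), with genes that rose in red, genes that fell in blue, genes not past the adjusted p of 0.05 in grey, and the list's median as a black line. Most interferon and liver lists lie below 0, the antiviral list holds genes on both sides, and the histone and TXNIP lists lie above 0.

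Antigen presentation genes fell by moderate amounts. Of 21 genes tested for HLA class I and peptide loading, 16 fell (76.2%, beside 28.4% of all genes) and none rose, with a median log2 fold change of -0.60. PSMB8, a subunit of the immunoproteasome, fell from 53.1, 53.3 and 54.2 CPM to 24.1, 20.4 and 23.8 CPM. CALR, the chaperone calreticulin, fell from 1812, 1858 and 1854 CPM to 1039, 1060 and 1164 CPM. HLA-E did not pass the threshold, at -0.13 ± 0.08, and its value was 0.13 with the GC correction. HLA genes share sequence with each other, and reads that align to several of them were not counted, so their values are uncertain. IFI30, the thiol reductase of the class II pathway, fell from 166, 161 and 173 CPM to 72.5, 95.3 and 91.7 CPM, whereas the invariant chain CD74 did not pass (0.12 ± 0.14). Of 15 class II genes listed only 3 had enough counts for the test.

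The guanylate-binding proteins, GTPases of the defence against intracellular pathogens, and the apolipoproteins L fell with few exceptions. Of 9 genes tested 8 fell (88.9%, beside 28.4% of all genes), with a median of -1.73. Of these, 5 were past both thresholds, as were 3.75% of all genes in that direction. GBP1 (chr1:89051882-89065360, minus strand) fell from 22.1, 26.8 and 32.4 CPM to 4.47, 7.06 and 5.71 CPM. GBP5, which had no count in the DMSO and ABBV-075 libraries, fell from 11.4, 11.5 and 8.38 CPM to 0.496, 2.71 and 1.2 CPM. APOL1, a lytic factor against trypanosomes, fell from 99.4, 115 and 113 CPM to 31.8, 31.5 and 36.1 CPM, beside the 33.6 ± 2.08 CPM (SD, n = 3) of DMSO cells. APOL6 fell by 0.78 ± 0.08 on the log2 scale and remained at 297 to 324 CPM. A gene that is high with IFNg alone enters the test through the IFNg libraries, which favours falls. The counts of this and the other lists thus describe the members tested only.

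UBE2L6 (chr11:57551656-57568284, minus strand), the E2 enzyme that passes the ubiquitin-like ISG15 to its targets, was at 357, 382 and 349 CPM with IFNg. With ABBV-075 it was at 89.6, 98 and 96.5 CPM, below every IFNg library and 3.85-fold lower (log2 -1.94 ± 0.09, adjusted p = 1.96e-19, edgeR). DMSO cells held 28.9 ± 2.76 CPM and ABBV-075 cells without IFNg 10.2 ± 4.08 CPM (SD, n = 3). The change with IFNg differed from the change without it by -0.42 (interaction adjusted p = 0.769, edgeR). TRIM22, an antiviral ubiquitin ligase, fell further, from 46.6, 34.8 and 44.9 CPM to 4.47, 2.44 and 2.71 CPM (12.9-fold). USP18, which removes ISG15, fell from 47.4, 51.6 and 44.7 CPM to 18.6, 18.5 and 15.6 CPM. UBD, the ubiquitin-like protein FAT10, fell from 645, 598 and 658 CPM to 295, 283 and 246 CPM. Of the 14 genes tested in this system 9 fell (64.3%, beside 28.4% of all genes) and none rose, with a median of -0.71.

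Antiviral interferon-stimulated genes mostly fell, but a small set rose. Of 41 genes tested, 28 fell (68.3%, beside 28.4% of all genes) and 6 rose (14.6%, beside 28.2%), with a median of -0.60. IFITM1, which blocks the entry of viruses (chr11:310041-315272, plus strand), was at 13.6, 10.9 and 8.93 CPM with IFNg. With ABBV-075 it was at 0.496, 0.271 and 0.301 CPM, a count ratio of 30.8 (95% exact binomial interval 11.7 to 115). EPSTI1, an interferon-induced gene of epithelial and myeloid cells, had no count without IFNg, and fell from 33.5, 31.2 and 27.9 CPM to 3.97, 5.43 and 3.91 CPM. MX1, a dynamin-like GTPase against RNA viruses, fell from 12.8, 8.25 and 6.42 CPM to 1.74, 2.17 and 0.902 CPM. ADAR, the most abundant gene of the list, which edits double-stranded RNA, fell from 737, 748 and 708 CPM to 427, 439 and 453 CPM.

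The 6 antiviral genes that rose were SAMD9, IFIT2, DDX58, IFIT1, PARP14 and SAMHD1. DDX58, the cytosolic RNA sensor RIG-I, rose from 17.4, 21.5 and 16.5 CPM to 48.6, 48 and 34 CPM (log2 1.24 ± 0.16, adjusted p = 3.73e-08, edgeR). SAMD9 rose at a low level, from 1.91, 1.77 and 1.4 CPM to 5.71, 8.14 and 6.32 CPM. IFIT2, a member of the IFIT family, rose from 1.09, 1.18 and 2.51 CPM to 5.95, 4.89 and 3.61 CPM. SAMHD1, a hydrolase of deoxynucleotides, rose from 223, 199 and 179 CPM to 264, 249 and 255 CPM. The groups did not overlap in any of these 4 genes, nor in 60.7% of all genes tested.

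The test of the interaction called few genes. Across 11034 genes tested in both, the log2 fold changes with and without IFNg had a Pearson r of 0.905 and a Spearman rho of 0.887, a description across genes that are not independent replicates. The 2 comparisons share no library. Of the 690 genes past both thresholds with IFNg, 336 (48.7%) were past both also without it, and these made up 69.9% of the 481 genes (4.28% of 11244) called there, where 39.3% passed the adjusted p alone. All 336 had the same direction. The median log2 fold change of the upregulated genes was 1.73 with IFNg and 1.32 without it, and of the downregulated genes -1.96 and -1.74, over the 258 and 381 of them tested in both and chosen by their values with IFNg. In a test of the interaction over the 12 libraries, 4 of 11530 genes (0.0347%) passed the adjusted p of 0.05, 2 higher and 2 lower (0.0173% each), and 775 had an unadjusted p under 0.05. Without replicate 1 of ABBV-075 the test called 83 genes higher and 117 lower in place of 2 and 2, and with DESeq2 6 and 6. With the GC correction it called 16 and 11. The count of such genes thus moved both with 1 library and with the processing. A term that misses the threshold does not show that the change was the same with and without IFNg. Since the length of the treatments with IFNg is not given, a difference in time cannot be told apart from IFNg in this test.

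**Figure D4:**
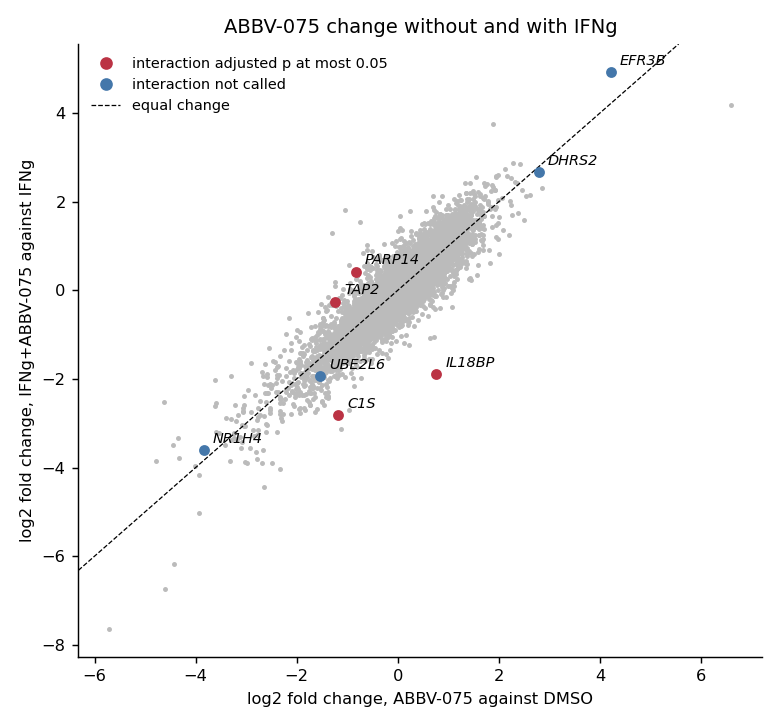
Log2 fold change of IFNg+ABBV-075 against IFNg (vertical axis) against that of ABBV-075 against DMSO (horizontal axis) for 11034 genes, with the line of equal change. Most genes lie along the line, IL18BP and C1S lie below it, and PARP14 and TAP2 lie above it.

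C1S, a serine protease of the first complement component (chr12:6988259-7071032, plus strand), fell more with IFNg than without it. It was at 136, 120 and 121 CPM with IFNg and at 18.1, 16 and 19.6 CPM with ABBV-075, 7.07-fold lower (log2 -2.82 ± 0.13, adjusted p = 8.46e-20, edgeR). Without IFNg it went from 25.8 ± 0.766 CPM to 11.6 ± 2.07 CPM (SD, n = 3), a log2 fold change of -1.18 ± 0.18. The interaction term was -1.66 (adjusted p = 0.00131, edgeR). IL18BP, the secreted decoy that binds interleukin-18, fell with ABBV-075 in the presence of IFNg, from 27, 37.7 and 31.3 CPM to 6.45, 10 and 9.62 CPM. Without IFNg it rose, from 4.67 ± 1.14 CPM to 8.13 ± 1.46 CPM (log2 0.77 ± 0.28, adjusted p = 0.0424, edgeR). Its interaction term of -2.67 (adjusted p = 0.00131, edgeR) was the largest of the 4.

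PARP14, a mono-ADP-ribosyltransferase, and TAP2, a subunit of the transporter that loads peptides on HLA class I, had positive terms. PARP14 rose from 180, 192 and 177 CPM to 267, 235 and 237 CPM in the presence of IFNg, and fell from 25.9 ± 2.38 to 14.8 ± 1.86 CPM without it. Its interaction term was 1.23 (adjusted p = 0.00271, edgeR). TAP2 was at 242, 278 and 277 CPM with IFNg and at 210, 224 and 237 CPM with ABBV-075, and its log2 fold change was -0.26 ± 0.09. With the GC correction the value was -0.08 (adjusted p = 0.371, edgeR). Without IFNg it fell from 58.4 ± 1.98 to 25.3 ± 3.21 CPM, and its interaction term was 0.96 (adjusted p = 0.0223, edgeR). C1S, IL18BP and PARP14 kept their call when any 1 of the 12 libraries was left out, whereas TAP2 lost it in 8 of those 12 fits, with an adjusted p of up to 0.128.

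**Figure D5:**
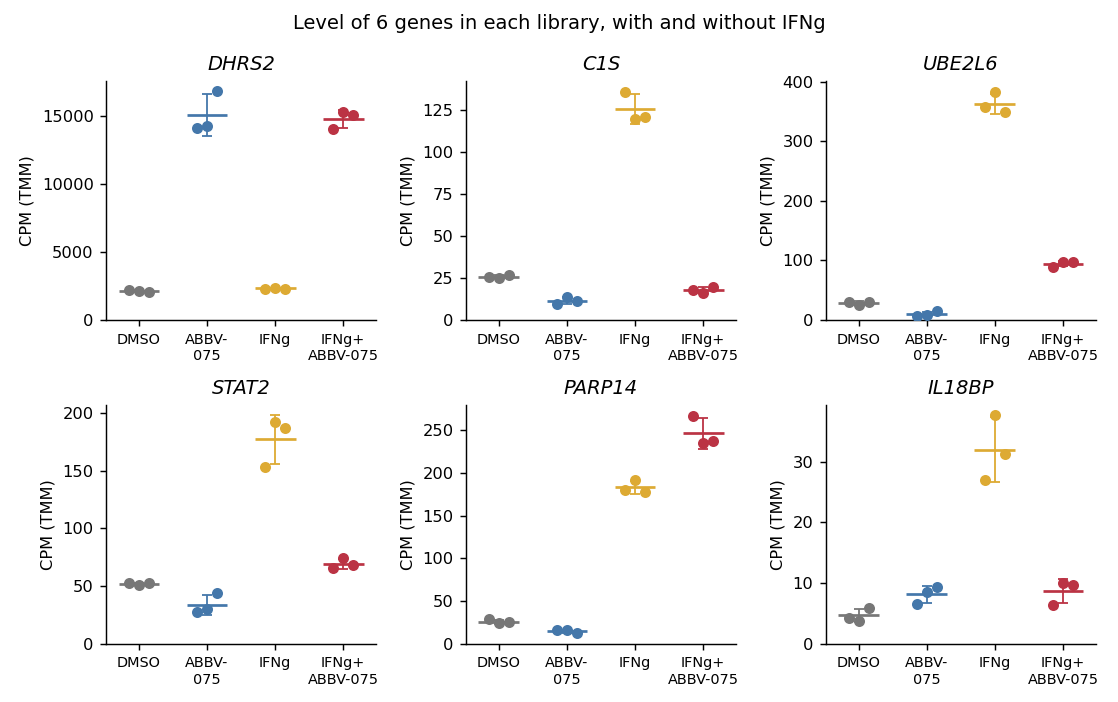
CPM of 6 genes in each library of DMSO, ABBV-075, IFNg and IFNg+ABBV-075 (points), with the mean as a line and the SD as bars (n = 3). DHRS2 is high in both ABBV-075 groups, C1S, UBE2L6, STAT2 and IL18BP are lower with IFNg+ABBV-075 than with IFNg, and PARP14 is higher.

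Promoter sequence is shown for 4 interferon genes, IFITM1 and EPSTI1, which fell, and PARP14 and TAP2, which had a positive interaction term. TAP2 also fell in the presence of IFNg, and IFITM1 and EPSTI1 were not tested in ABBV-075 against DMSO. The 4 genes are thus no contrast of genes that fell with genes that did not. The sequences are from RefSeq (GRCh38.p14) and cover the 100 bases before the start site. Capitals mark the GAS, searched as TTCNNNGAA, and the interferon-stimulated response element (ISRE), searched as GAAANNGAAA on both strands.
IFITM1 (chr11:313940-314039, plus strand): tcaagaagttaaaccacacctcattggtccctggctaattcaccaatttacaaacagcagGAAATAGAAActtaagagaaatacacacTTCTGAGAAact
EPSTI1 (chr13:42992242-42992341, minus strand): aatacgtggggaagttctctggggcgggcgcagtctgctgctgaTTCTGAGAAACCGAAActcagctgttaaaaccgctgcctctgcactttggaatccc
PARP14 (chr3:122680739-122680838, plus strand): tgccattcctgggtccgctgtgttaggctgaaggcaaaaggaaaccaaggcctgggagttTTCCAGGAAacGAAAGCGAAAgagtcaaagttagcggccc
TAP2 (chr6:32838740-32838839, minus strand): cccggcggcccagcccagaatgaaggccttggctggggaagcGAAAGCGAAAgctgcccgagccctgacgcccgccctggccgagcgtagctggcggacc

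PARP14 held a GAS that began 40 bases before the start site and an ISRE that began 29 bases before it. In EPSTI1 the GAS and the ISRE overlapped, beginning 56 and 50 bases before the start. IFITM1 held a GAS beginning 12 bases before the start, an ISRE 40 bases before it, and another ISRE 6 bases before it that ran across the start and is not marked. TAP2 had an ISRE that began 58 bases before the start and no GAS. IL18BP had 4 start sites in the table, and the window of the third held GAS matches beginning 37 and 7 bases before the start and an ISRE 67 bases before it, whereas the other 3 windows held neither. UBE2L6 had neither motif in its 2 windows, and the window of DHRS2 held a GAS that began 23 bases before the start. Among all 35116 promoter windows, of 300 bases each, 7.66% held the GAS and 3.57% the ISRE. Of the 41 antiviral genes tested, 34 were in the RefSeq table, and 23 of these (67.6%) held an ISRE in a window, beside 4.38% of the 27305 genes in the table. A match of these letters is a description and no proof of binding.

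Complement genes of the liver fell. Of 41 genes listed, 20 had too few counts for the test. Of 21 genes tested 14 fell (66.7%, beside 28.4% of all genes), with a median of -1.16. The 2 that rose became 0 or 1 when any library was left out. C1R, the partner protease of C1S, fell from 65.9, 66 and 72.3 CPM to 9.92, 5.7 and 7.52 CPM (8.76-fold). C4BPB, the beta chain of the C4b-binding protein, fell from 40.6, 32.4 and 35.7 CPM to 3.97, 3.26 and 3.31 CPM, and had fallen about as far without IFNg, from 32.8 ± 2.18 to 3.67 ± 0.461 CPM. C3, the central and most abundant component, fell from 772, 949 and 1015 CPM to 495, 466 and 524 CPM.

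Chemokines and cytokines showed the second lowest median of these lists, -1.71, and 10 of 11 genes tested fell (90.9%, beside 28.4% of all genes). Of the 30 genes listed, 19 had too few counts for the test. IL1RN, the antagonist of the interleukin-1 receptor, fell from 37.3, 33.3 and 32.1 CPM to 2.73, 2.99 and 1.5 CPM (log2 -3.80 ± 0.24, adjusted p = 6.58e-16, edgeR). LIF, a cytokine of the interleukin-6 family, fell from 49, 61 and 55.6 CPM to 6.2, 7.33 and 8.12 CPM. CCL20, which attracts CCR6-bearing cells, fell from 61.8, 55.7 and 53.6 CPM to 28.5, 25.5 and 26.5 CPM. Of 7 checkpoint ligands and adhesion molecules tested 6 fell (85.7%, beside 28.4% of all genes) and none rose. ICAM1, the adhesion molecule of leukocyte contacts, fell from 170, 215 and 223 CPM to 79.6, 106 and 103 CPM, and PVR, a ligand of TIGIT, from 105, 113 and 118 CPM to 71.2, 68.4 and 63.8 CPM.

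Genes of hepatocyte function fell across several lists. Of 12 bile acid genes tested 11 fell (91.7%, beside 28.4% of all genes) and none rose (median -1.02). Of 15 drug-metabolizing enzymes tested 11 fell (73.3%) and none rose (median -1.47). Too few counts for the test were held by 10 of the 22 bile acid genes and 24 of the 39 enzymes listed. NR1H4, the bile acid receptor FXR (chr12:100473708-100564414, plus strand), fell from 59.6, 64.2 and 50.8 CPM to 5.95, 5.16 and 3.01 CPM (log2 -3.60 ± 0.20, adjusted p = 5.76e-18, edgeR). ABCC2, the canalicular exporter of conjugates, fell from 483, 462 and 486 CPM to 102, 85.8 and 92.3 CPM. SULT2A1, the sulfotransferase of bile acids and steroids, fell from 129, 98.4 and 118 CPM to 15.6, 13.3 and 9.93 CPM. GPAM, which starts glycerolipid synthesis, fell from 161, 165 and 133 CPM to 25.3, 16.3 and 13.8 CPM. MAT1A, the liver enzyme that makes S-adenosylmethionine, fell from 197, 199 and 216 CPM to 41.7, 50.2 and 50.8 CPM. None of these groups of libraries overlapped, nor did those of 60.7% of all genes tested.

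Secreted plasma proteins also fell. Of 22 acute-phase and carrier proteins tested, 18 fell (81.8%, beside 28.4% of all genes) and 1 rose (median -0.81). Of 21 coagulation genes tested 14 fell (66.7%) and 2 rose (median -1.08). With the GC correction none rose in either list, and 19 acute-phase and carrier genes and 17 coagulation genes fell. Of 33 genes in each of these lists, 11 and 12 had too few counts for the test. A2M, the broad protease inhibitor, fell from 4261, 4323 and 4241 CPM to 2046, 1917 and 2113 CPM. SERPIND1, heparin cofactor II, fell from 345, 348 and 323 CPM to 85.1, 82 and 85.7 CPM. AHSG, fetuin-A, fell from 2091, 2383 and 2187 CPM to 776, 855 and 921 CPM. Of 17 apolipoprotein and lipoprotein genes tested 10 fell (58.8%) and 2 rose. The 2 that rose were APOB, the main protein of very low density lipoprotein, from 5853, 6552 and 5328 CPM to 11795, 9506 and 10859 CPM, and APOA1, that of high density lipoprotein, by 0.37 ± 0.09 on the log2 scale. Of 37 hepatocyte transcription factors and nuclear receptors tested 17 fell (45.9%) and 4 rose (10.8%, beside 28.2% of all genes), with a median of -0.42.

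ABBV-075 and ABBV-744, at 50 nM each and with IFNg, gave different levels of many genes. Of 11126 genes tested, 1860 were higher (16.7%) and 1892 lower (17%) with ABBV-075 than with ABBV-744, and with both thresholds 40 were higher (0.36%) and 126 lower (1.13%). Scaling to library size only moved the median of all genes by -0.116 and gave 1166 higher and 2836 lower genes. TRIM22, NR1H4, VAV3, NPSR1-AS1 and INHBC were the 5 lowest against ABBV-744, and EFR3B, IL11RA, THEMIS2, TMEM191A and BAIAP3 the 5 highest. NR1H4 was at 55.6, 52.5 and 54 CPM with IFNg+ABBV-744, within the range of IFNg alone, and its log2 difference between the inhibitors was -3.44 (95% interval -3.81 to -3.07). EFR3B was at 2.65, 1.41 and 2.48 CPM, a difference of 4.35 (3.90 to 4.80). HEXIM1 was at 55.4, 38.6 and 54.3 CPM, a difference of 1.49 (1.27 to 1.71). VAV3, a guanine nucleotide exchange factor, was at 16.4, 21.7 and 15.7 CPM, beside 0.744, 1.9 and 0.902 CPM with ABBV-075.

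The genes described above did not all separate the inhibitors. DHRS2 was at 5443, 5360 and 5605 CPM with IFNg+ABBV-744, between IFNg alone and IFNg+ABBV-075, with a difference of 1.48 (95% interval 1.31 to 1.66, adjusted p = 2.8e-18, edgeR). C1S and UBE2L6 were also between the other groups, at 51.7 ± 1.77 and 187 ± 15.5 CPM (SD, n = 3). For MYC the difference was -0.10 (-0.31 to 0.11, adjusted p = 0.497), for IRF1 0.08 (-0.09 to 0.25, adjusted p = 0.52) and for DDX58 -0.11 (-0.38 to 0.15, adjusted p = 0.528, edgeR). A p above the threshold does not show that the inhibitors acted alike on these 3 genes. PARP14 was higher with ABBV-744, at 395, 374 and 359 CPM, and the difference was -0.56 (-0.73 to -0.40). Fits to 5 libraries gave 61 to 70 genes higher past both thresholds when replicate 1 of IFNg+ABBV-075 (64) or any library of IFNg+ABBV-744 was left out, against 40 with all 6.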

How the data were processed

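RNA of HepG2 cells was depleted of ribosomal RNA and made into directional libraries. Per the labels, the authors used CASAVA 1.8.2, Trimmomatic 0.33, STAR 2.7.1, DESeq2 and the hg38 build. The deposited values are raw read counts per gene and library in the layout of STAR, without normalization. The annotation used for counting is not given in the sources used here. The column of the gene's own strand was used, and rows for unmapped, multimapping, unassigned and ambiguous reads were left out, so that 12.8% to 15.5% of reads remained.

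Counts of 6 libraries (12 for the interaction) were filtered with filterByExpr, normalized by TMM and tested with edgeR 4.0.16 (quasi-likelihood, R 4.3.3) with Benjamini-Hochberg adjustment. CPM used TMM factors over all 24 libraries. SE is the log2 fold change over the square root of F. GC content was that of the longest GENCODE transcript, and the correction used a lowess curve with a span of 0.3. Coordinates are GRCh38. Alternatives were DESeq2 1.42.0, other scalings, filters on low counts, both strands counted, the GC correction, a replicate block, a fit to all 24 libraries, and each replicate left out. The fits against IFNg, of the interaction and against ABBV-744 were also run on simulated data. The fit of ABBV-075 against DMSO was not tested in this way. Without a GC trend, genes set to differ by 1 on the log2 scale were called in 90%, 53% and 91% of cases. With a GC trend, the main fit against IFNg called 5.58% of genes set to be equal, and 0.07% with the GC correction.

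The members and gene lists were chosen with earlier results of these data known. Genes named are the 10 largest increases and decreases past both thresholds with mean log2 CPM of at least 1 and no overlap, DHRS2, C1S, UBE2L6, HEXIM1, SERPINI1, MYC, up to 3 largest increases, 3 largest decreases and 3 most abundant members per list, and the 5 largest terms each way of the interaction and of the comparison with ABBV-744. IFIT1 was named after its values were seen. Intervals and floors cover counting error only, since the reads carry no molecular identifiers.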

Additional observations from a re-analysis of the deposited data

Results flagged for a closer look

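The change by ABBV-075 differed between cells with and without IFNg, by the test of the difference itself, in 4 genes. The length of the treatments with IFNg is not given, so IFNg and a difference in treatment time cannot be told apart here. The term, the log2 fold change with IFNg minus that without it, was -2.67 for IL18BP (SE 0.35, adjusted p = 0.00131, edgeR) and -1.66 for C1S (SE 0.22, adjusted p = 0.00131). It was 1.23 for PARP14 (SE 0.17, adjusted p = 0.00271) and 0.96 for TAP2 (SE 0.16, adjusted p = 0.0223). Over the fits that leave out 1 of the 12 libraries, the term ran from -2.89 to -2.48 for IL18BP, from -1.78 to -1.52 for C1S, from 1.14 to 1.29 for PARP14 and from 0.85 to 1.03 for TAP2. IL18BP, C1S and PARP14 were called in 22 of 22 alternatives, with adjusted p up to 0.0147, 0.0147 and 0.0331, and TAP2 in 14 of 22.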

How the results depend on the processing

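Against IFNg, the 270 upregulated genes became 132 with the GC correction and 133 with the replicate block and GC correction, and the 420 downregulated genes became 217 with at least 10 counts in every library and 652 with no filter on low counts. For the interaction, the 2 higher and 2 lower genes became 6 and 6 with DESeq2, 16 and 11 with the GC correction, 23 and 22 with no filter, 17 and 10 with the replicate block and GC correction, and 1 to 83 and 2 to 117 when 1 library was left out (the highest without replicate 1 of ABBV-075). Against ABBV-744, the 40 higher and 126 lower genes past both thresholds became 19 and 55 with at least 10 counts in every library and 103 and 201 with no filter, the 40 became 47 to 70 with 1 library left out, and library size only gave 1166 higher genes at the adjusted p in place of 1860. The cause of these changes was not tested, beyond the number of genes that each filter lets in. IRF1 became a called rise with the GC correction (0.24, adjusted p = 0.00346) and with the block and GC correction (0.24, adjusted p = 0.00228), and took the opposite sign, past no threshold, without replicate 3 of IFNg (0.02) or of IFNg+ABBV-075 (0.00), over a range from -0.11 to 0.02 with 1 library left out, and so did HLA-E with the GC correction alone or with the block (0.13 each). Of 99 results for single genes, 90 kept their direction and their side of the threshold under every alternative run, and the exceptions were those of BRD2, JAK2, IRF1, HLA-E, CD74, IL11RA, TMEM191A and, in both tests, TAP2. Whether the replicate numbers pair the libraries is not given in the sources used here, and the main fit did not pair them. Deviations of same-numbered libraries correlated with r of 0.198, 0.022 and 0.181 over 11187 genes, and those of differently numbered libraries with -0.197 to 0.04. These values cannot decide the question, since deviations from a mean of 3 libraries are not independent. Replicate 2 of IFNg+ABBV-075 correlated best with replicate 3 of IFNg (0.04). The replicate block gave 265 upregulated and 419 downregulated genes. At the adjusted p alone it gave 3454 higher and 3454 lower genes, in place of 3155 and 3176. Depth limited genes of a few counts, and 26 of the 420 downregulated genes were at the floor in every ABBV-075 library.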

Other observations

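TXNIP, an arrestin-like protein that limits glucose uptake, rose from 31.6, 33.3 and 28.2 CPM to 140, 134 and 140 CPM (log2 2.14 ± 0.12, adjusted p = 6.79e-18, edgeR). With IFNg+ABBV-744 it was at 34.7, 38.1 and 34.7 CPM. Of 9 genes tested in its list, TXNIP included, 5 rose (55.6%, beside 28.2% of all genes) and 1 fell (11.1%, beside 28.4%). Of 17 histone genes tested 10 rose (58.8%, beside 28.2% of all genes) and 2 fell, with a median of 0.42. With the GC correction 12 rose and none fell. H1F0, a linker histone of resting cells, rose from 303, 300 and 346 CPM to 829, 848 and 884 CPM. Histone and metallothionein genes share sequence with near copies, so their counts are uncertain. Of 9 metallothionein genes and their regulators 6 rose (66.7%, beside 28.2% of all genes) and 2 fell (6 and 0 with the GC correction). MT2A, the most abundant that rose, went from 171, 172 and 217 CPM to 445, 528 and 521 CPM.

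The nuclear lncRNAs NEAT1 and MALAT1 rose, from 163, 166 and 170 to 734, 569 and 608 CPM and from 1010, 1053 and 1019 to 3380, 2702 and 2864 CPM. Of 32 nucleolar genes of ribosome biogenesis tested 19 fell (59.4%, beside 28.4% of all genes) and 5 rose, with a median of -0.59. PA2G4, a growth regulator of the nucleolus, fell from 278, 260 and 288 CPM to 77.9, 64.9 and 73.7 CPM. Of 48 genes of replication and mitosis 14 rose and 20 fell, beside 28.2% and 28.4% of all genes, with a median of -0.05. TOP2A, the mitotic topoisomerase, rose from 293, 297 and 217 CPM to 864, 735 and 714 CPM, whereas PLK1, a mitotic kinase, fell by 1.36 on the log2 scale and MCM5, a subunit of the replicative helicase, by 1.22.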
